A study of Mus musculus with 9 samples.

Results

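The transcription factors that hold mouse embryonic stem cells in naive pluripotency were followed in embryoid body differentiation through the RNA of 10 genes, namely Klf2, Klf4, Klf5, Esrrb, Tfcp2l1, Tbx3, Prdm14, Nr0b1, Zfp42 and Nanog. They were chosen by name, as known members of the naive network, with earlier results of these data known, and each symbol matched 1 Ensembl gene among the 54232 gene rows of the count table. Polyadenylated RNA of differentiating wild-type embryonic stem cells was sequenced in 9 libraries, 3 each for EBD2, EBD5 and EBD6. All 3 groups are wild type and differ only in the treatment label, EBD2, EBD5 or EBD6 differentiation. The labels do not say what the numbers stand for and name no cell line, medium or age. Rise, fall, step, earlier and later below follow the order of these numbers, which is not known to be an order in time. Undifferentiated cells were not analysed here.

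Naive pluripotency is the ground state of the preimplantation epiblast, and mouse embryonic stem cells keep it in culture. It is held by a network of transcription factors that activate one another and the core factors Pou5f1 and Sox2, with inputs from LIF through Stat3 and from Wnt signalling, which relieves repression by Tcf7l1. On exit towards the formative and primed epiblast most of these factors are switched off, while several also act outside pluripotent cells: Klf5 in trophectoderm, Klf4 and Klf5 in epithelia, Tfcp2l1 in kidney ducts and Tbx3 in endoderm, limb and heart.

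On the mm10 assembly (GRCm38, GENCODE release M21) the genes lie on 8 chromosomes. The Krüppel-like zinc finger genes Klf2, Klf4 and Klf5 are at chr8:72319033-72321656 (plus strand), chr4:55527143-55532466 (minus strand) and chr14:99298691-99315036 (plus strand). Esrrb, an orphan nuclear receptor that binds DNA as a monomer, is at chr12:86361117-86521628 (plus), and Nr0b1, a nuclear receptor without the usual zinc finger DNA-binding domain, at chrX:86191764-86195947 (plus). Tfcp2l1, of the CP2 family, is at chr1:118627945-118685168 (plus), the T-box gene Tbx3 at chr5:119670669-119684724 (plus) and Prdm14, a PR-domain zinc finger gene that represses de novo DNA methyltransferases, at chr1:13113457-13127163 (minus). Zfp42, also called Rex1 and a standard reporter of the naive state, is at chr8:43295063-43306980 (minus), and the homeobox gene Nanog at chr6:122707489-122714633 (plus). All 10 are protein-coding.

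RefSeq promoter sequences on GRCm38.p6 were found for 7 of the 10 genes, in 9 windows. Tbx3, Prdm14 and Klf5 had no entry. The 250 bases before each start site were searched on both strands for the octamer core TTTGCAT, a Krüppel-like factor box GGGNGTGG, the estrogen-related receptor motif AAGGTCA and the TATA box TATAAA. Over 32851 windows of the same length, 4.12% held the octamer core, 15.9% the Krüppel-like factor box, 4.08% the receptor motif and 12.4% the TATA box. No motif overlapped another in the windows shown. The 4 windows printed here are those of the genes with at least 1 match, with Nanog shown by its more upstream start; they are printed 5′ to 3′ in the direction of transcription, and capitals mark the motif matches.
Nanog promoter, chr6:122707239-122707488, plus strand: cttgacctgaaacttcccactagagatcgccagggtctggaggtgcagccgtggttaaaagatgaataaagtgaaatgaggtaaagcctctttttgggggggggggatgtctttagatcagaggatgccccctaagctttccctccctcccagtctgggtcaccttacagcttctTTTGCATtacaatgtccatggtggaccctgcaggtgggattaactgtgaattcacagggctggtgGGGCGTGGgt
Zfp42 promoter, chr8:43307010-43307259, minus strand: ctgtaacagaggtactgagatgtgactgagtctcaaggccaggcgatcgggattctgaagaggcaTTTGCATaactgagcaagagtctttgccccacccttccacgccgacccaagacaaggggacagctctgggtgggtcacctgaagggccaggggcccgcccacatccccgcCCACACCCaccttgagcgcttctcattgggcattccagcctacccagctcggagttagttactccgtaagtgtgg
Tfcp2l1 promoter, chr1:118627695-118627944, plus strand: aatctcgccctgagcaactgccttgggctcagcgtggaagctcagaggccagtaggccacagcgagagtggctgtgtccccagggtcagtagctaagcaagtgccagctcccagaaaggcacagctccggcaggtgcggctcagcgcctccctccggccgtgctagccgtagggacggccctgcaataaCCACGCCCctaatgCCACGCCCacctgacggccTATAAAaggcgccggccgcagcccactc
Nr0b1 promoter, chrX:86191525-86191774, plus strand: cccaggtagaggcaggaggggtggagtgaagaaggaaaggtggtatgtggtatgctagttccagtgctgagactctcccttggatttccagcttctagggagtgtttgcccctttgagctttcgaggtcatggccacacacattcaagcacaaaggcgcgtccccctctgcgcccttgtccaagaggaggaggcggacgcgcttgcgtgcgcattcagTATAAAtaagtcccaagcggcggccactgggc
Nanog and Zfp42 both held the octamer core, the site of Pou5f1, and a Krüppel-like factor box. In Nanog the octamer core lay at -75 to -69 and the box at -10 to -3 from the more upstream start site. Counted from its other start site, the window held the octamer core at -151 to -145 and boxes at -86 to -79 and -52 to -45. In Zfp42 the octamer core lay at -185 to -179 and the box at -75 to -68. Tfcp2l1 held a pair of Krüppel-like factor boxes, at -61 to -54 and -47 to -40, and a TATA box at -28 to -23, and Nr0b1 a TATA box at -32 to -27. The windows of Klf2, Klf4 and Esrrb held none of the motifs. These are matches of letters and not measured binding.

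The libraries held 5453412 to 11703371 counts. EBD2 replicates 1 and 2, and EBD6 replicates 2 and 3, agreed within counting noise over genes (chi-square per gene 0.949, and 1.01 with p = 0.169, against 1.21 to 4.31 for the other pairs within a group), and each such pair was counted as 1 sample, so that n is 2, 3 and 2. Levels are CPM (read counts scaled to a common library size, with TMM factors), the mean ± SD is over these samples, and log2 fold changes carry the standard error (SE) of the edgeR quasi-likelihood fit over 16168 genes, with p-values adjusted by Benjamini-Hochberg over all of them and calls at an adjusted p under 0.05. Since no label ties the replicates to separate cultures, the p-values speak only of the spread among these samples, and that spread may be technical. The EBD5 libraries stood apart in RNA composition: nuclear ribosomal RNA took 0.726 to 0.811% of their counts, against 0.0165 to 0.0247% in the 6 other libraries, and processed pseudogenes 1.116 to 1.14% against 0.194 to 0.347%. Fold changes also moved with GC content. Over 10 GC bins of protein-coding genes, the median log2 fold change of EBD5 against EBD2 went from 0.32 (lowest GC) to -0.73 (highest). That of EBD6 against EBD5 went from -0.52 to 0.97. The 10 genes are therefore also given with the medians of GC and length bins removed. Fold changes and calls of all other genes named below are as fitted, with no bins removed. The part of GC content in them was not tested. The part of the ribosomal RNA in the results was not tested.

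All 10 genes were detected in every library and all passed the filter on low counts, with between 40 counts (Prdm14 in EBD5 replicate 1) and 3124 (Esrrb in EBD6 replicate 3). The summed level of the 10 genes was 942.5 to 968.6 CPM in EBD2 libraries, 857.5 to 911.4 in EBD5 and 1107 to 1150.5 in EBD6. The group means were 956 ± 17.8 (SD, n = 2), 877 ± 30.1 (n = 3) and 1131 ± 26.9 (n = 2), and the groups did not overlap. Esrrb made up 29.2% of it in EBD2, 16.2% in EBD5 and 22.7% in EBD6, and Klf2 12.1%, 3.74% and 8.74%. Klf5 went the other way, from 7.0% to 16.4% and 11.17%, as did Tfcp2l1, from 5.86% to 13.8% and 13.1%. In bulk RNA fewer cells with a gene on and less RNA per cell cannot be told apart, and this holds for every level below.

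Between EBD2 and EBD5, 9 of the 10 genes passed the test, 5 higher and 4 lower in EBD5. In the same fit 70.0% of all 16168 genes passed, 34.9% higher and 35.1% lower, so this many calls is not particular to these genes. Between EBD5 and EBD6, 9 of 10 passed, 7 higher and 2 lower in EBD6, against 70.2% of all genes, 36.9% higher and 33.3% lower. Between EBD2 and EBD6, 7 of 10 passed, 4 higher and 3 lower in EBD6, against 66.1% of all genes, 33.8% higher and 32.3% lower. The median log2 fold change of the 10 genes was 0.17, 0.93 and -0.06 in that order, beside -0.01, 0.04 and 0.01 over all genes tested. The 3 comparisons share their groups, so the calls of one are not independent of the others. Tested against a fold of 1.5 in place of no change, 6, 6 and 4 of the 10 passed, beside 5606, 5317 and 4918 of all 16168 genes. For description the genes were put in 3 sets. Klf2, Esrrb, Nr0b1 and Prdm14 were lowest in EBD5, and Klf4, Klf5, Tfcp2l1 and Tbx3 were lowest in EBD2. Nanog and Zfp42 changed least. Called directions were not all the same within a set.

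**Figure D1:**
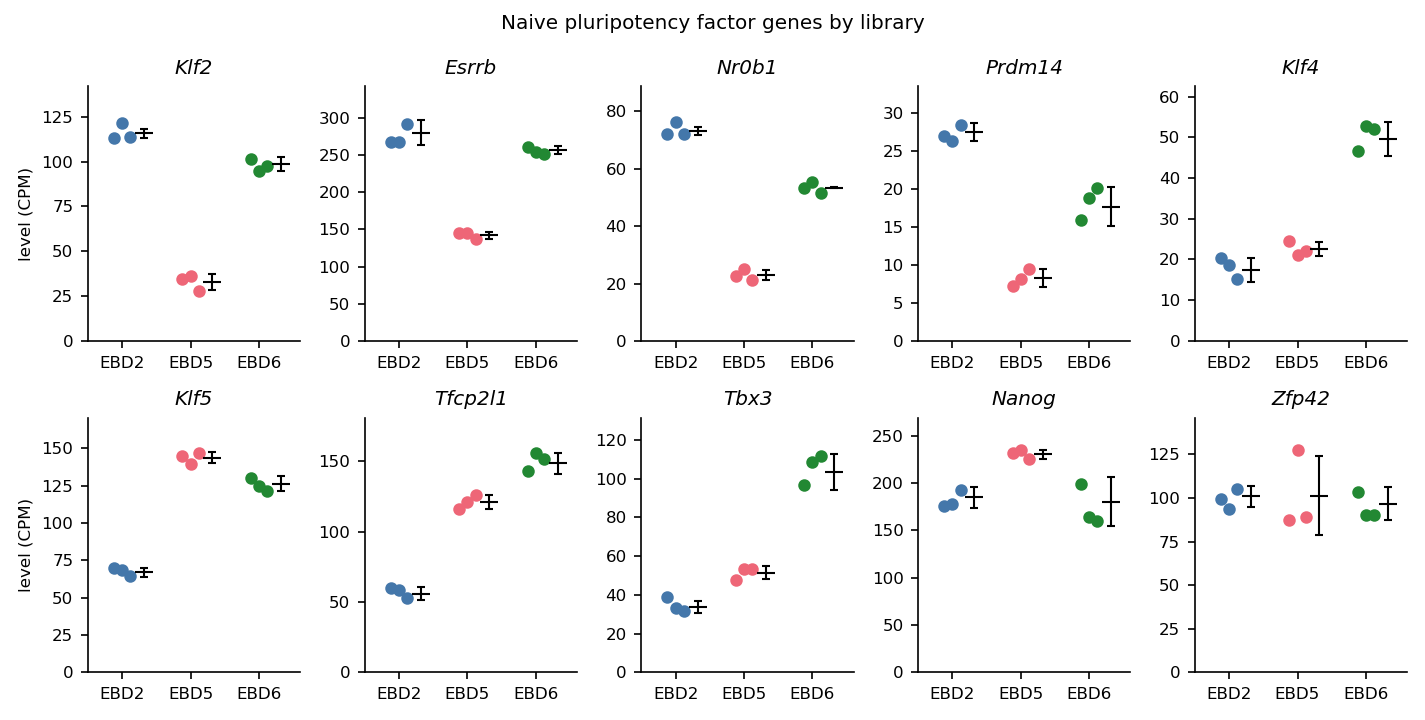
Level of each of the 10 genes in CPM (vertical axes, from 0) in the 3 libraries of EBD2, EBD5 and EBD6 (points, replicates 1 to 3 from left to right), with the mean ± SD over samples beside them (n = 2, 3 and 2). Klf2, Esrrb, Nr0b1 and Prdm14 dip in EBD5, Klf4, Klf5, Tfcp2l1 and Tbx3 are lowest in EBD2, and the libraries of the 3 groups overlap for Zfp42.

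The genes that were lowest in EBD5 fell from EBD2 by between 1.97-fold and 3.52-fold and stood higher again in EBD6. Klf2, whose protein is broken down when Erk is active, was at 113, 122 and 114 CPM in EBD2 replicates 1 to 3. It was at 34.5, 36.1 and 27.8 CPM in EBD5, and at 102, 94.7 and 97.3 CPM in EBD6. The groups did not overlap, and EBD6 lay close under EBD2. Klf2 fell by 1.82 ± 0.09 (SE) on the log2 scale from EBD2 to EBD5 (3.52-fold, edgeR adjusted p = 3.46e-08) and rose by 1.58 ± 0.09 from EBD5 to EBD6 (2.99-fold, edgeR adjusted p = 1.25e-07). Klf2 has the highest GC content of the 10 genes, 61.6%, and with the medians of GC and length bins removed these folds came to 2.10-fold lower and 1.59-fold higher, both still called. The small difference of EBD6 from EBD2, a log2 of -0.24 ± 0.09 (edgeR adjusted p = 0.0346), was lost under DESeq2 (adjusted p = 0.103), with no filter (edgeR adjusted p = 0.0952), and without EBD2 replicate 2 (0.0739) or 3 (0.0888). With GC and length bins removed it was larger, -0.40 ± 0.09 (edgeR adjusted p = 0.00183).

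Esrrb, a Wnt-responsive gene that Tcf7l1 represses, had the most counts of the 10. It was at 268, 268 and 292 CPM in the EBD2 libraries, 145, 145 and 136 CPM in EBD5, and 261, 254 and 251 CPM in EBD6. The EBD5 libraries all lay far below the others, and EBD6 lay just under EBD2. Esrrb fell by 0.97 ± 0.06 (SE) on the log2 scale to EBD5 (1.97-fold, edgeR adjusted p = 2.28e-07) and rose by 0.85 ± 0.06 to EBD6 (1.80-fold, edgeR adjusted p = 6.68e-07). For EBD6 against EBD2 the log2 fold change was -0.12 ± 0.07, which did not pass (edgeR adjusted p = 0.126). With GC and length bins removed it was -0.35 and passed (edgeR adjusted p = 0.00267).

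Nr0b1, a corepressor that binds the Pou5f1 protein, was at 72.1, 76.2 and 72.0 CPM in EBD2. It was at 22.5, 24.9 and 21.3 CPM in EBD5 and at 53.2, 55.5 and 51.7 CPM in EBD6. The 3 groups did not overlap, and EBD6 lay between the other two. Its log2 fold changes were -1.67 ± 0.08 for EBD5 against EBD2 (edgeR adjusted p = 3.04e-08), 1.22 ± 0.08 for EBD6 against EBD5 (3.90e-07) and -0.46 ± 0.08 for EBD6 against EBD2 (0.000431).

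Prdm14 followed the same course at a lower level, with 27.0, 26.3 and 28.4 CPM in EBD2, 7.19, 8.19 and 9.44 CPM in EBD5, and 15.9, 18.8 and 20.1 CPM in EBD6. Its groups did not overlap either. It fell by 1.73 ± 0.15 (SE) on the log2 scale to EBD5 (3.31-fold, edgeR adjusted p = 1.65e-06), rose by 1.13 ± 0.15 to EBD6 (2.19-fold, 4.29e-05) and ended below EBD2 by a log2 of -0.59 ± 0.13 (edgeR adjusted p = 0.00248). Of the genes tested, 5.33% shared the course of Klf2, Nr0b1 and Prdm14 (lower, then higher, and lower in EBD6 than in EBD2), and 8.97% that of Esrrb, which was not called between EBD2 and EBD6.

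Klf4, Klf5, Tfcp2l1 and Tbx3 were all higher in EBD5 and EBD6 than in EBD2, with a small and unsteady difference for Klf4 in EBD5. Tfcp2l1, a Stat3 target that can carry self-renewal downstream of LIF, was at 60.1, 58.4 and 52.7 CPM in EBD2, 116, 121 and 126 CPM in EBD5, and 143, 156 and 152 CPM in EBD6. Each group lay above the one before. Tfcp2l1 rose by a log2 of 1.10 ± 0.07 (SE) to EBD5 (2.14-fold, edgeR adjusted p = 2.97e-07) and by a further 0.30 ± 0.07 to EBD6 (1.23-fold, edgeR adjusted p = 0.00178). From EBD2 to EBD6 it rose 2.64-fold.

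Tbx3, placed downstream of PI3K signalling and able to sustain Nanog, was at 38.9, 33.1 and 31.5 CPM in EBD2, 47.8, 53.5 and 53.3 CPM in EBD5, and 96.9, 108 and 112 CPM in EBD6. No library of one group reached another group. It rose by a log2 of 0.60 ± 0.10 (SE) to EBD5 (edgeR adjusted p = 0.000247) and by 1.02 ± 0.09 from there to EBD6 (edgeR adjusted p = 1.59e-06), 3.06-fold in all. With GC and length bins removed the order of the steps turned, to 0.78 ± 0.08 for the earlier and 0.65 ± 0.07 for the later one. Its antisense gene Tbx3os1, whose reads may not be told apart from those of Tbx3 because the strand setting of the counting is not given, held 2 to 23 counts in a library, against 179 to 1389 for Tbx3.

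Klf4, another direct Stat3 target and one of the reprogramming factors, was at 20.4, 18.8 and 15.3 CPM in EBD2, 24.4, 21.1 and 22.1 CPM in EBD5, and 46.7, 52.9 and 52.1 CPM in EBD6. EBD2 and EBD5 nearly touched, while EBD6 lay far above both. Klf4 rose by a log2 of 1.15 ± 0.11 (SE) from EBD5 to EBD6 (2.22-fold, edgeR adjusted p = 4.54e-06) and was 2.80-fold higher in EBD6 than in EBD2. The smaller difference of EBD5 from EBD2, 0.33 ± 0.13 (edgeR adjusted p = 0.0389), was lost under DESeq2 (adjusted p = 0.0881), limma-voom (0.0594) and with EBD5 replicates 1 and 3 summed (edgeR adjusted p = 0.0619). It was also lost without EBD2 replicate 3 (log2 0.20, edgeR adjusted p = 0.226), EBD5 replicate 1 (0.121) or EBD5 replicate 3 (0.0642). With GC and length bins removed it was larger, 0.68 ± 0.11 (edgeR adjusted p = 0.000169), and about as large as the step to EBD6, 0.64 ± 0.09.

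Klf5, which with Klf2 and Klf4 supports self-renewal and alone of the 3 is required for trophectoderm, made its whole rise by EBD5. It was at 69.6, 68.4 and 64.8 CPM in EBD2, 145, 139.6 and 147 CPM in EBD5, and 130.0, 125 and 121 CPM in EBD6. EBD5 and EBD6 both lay far above EBD2, with EBD6 slightly lower than EBD5. Klf5 rose by a log2 of 1.10 ± 0.06 (SE) to EBD5 (2.14-fold, edgeR adjusted p = 9.27e-08) and then fell by 0.19 ± 0.06 (edgeR adjusted p = 0.0130). That fall was lost with no filter (edgeR adjusted p = 0.153) and with GC and length bins removed (0.0651), and EBD6 stayed 1.87-fold above EBD2. So the 3 Krüppel-like factors of the naive network, which can stand in for one another in embryonic stem cells, were called in different directions: Klf2 fell and then rose, Klf4 rose at both steps, and Klf5 rose and then fell slightly. The call of Klf4 at the earlier step and that of Klf5 at the later one were lost under the alternatives named above. Of all genes tested, 6.93% rose at both steps as Klf4, Tbx3 and Tfcp2l1 did, and 4.91% had the calls of Klf5.

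**Figure D2:**
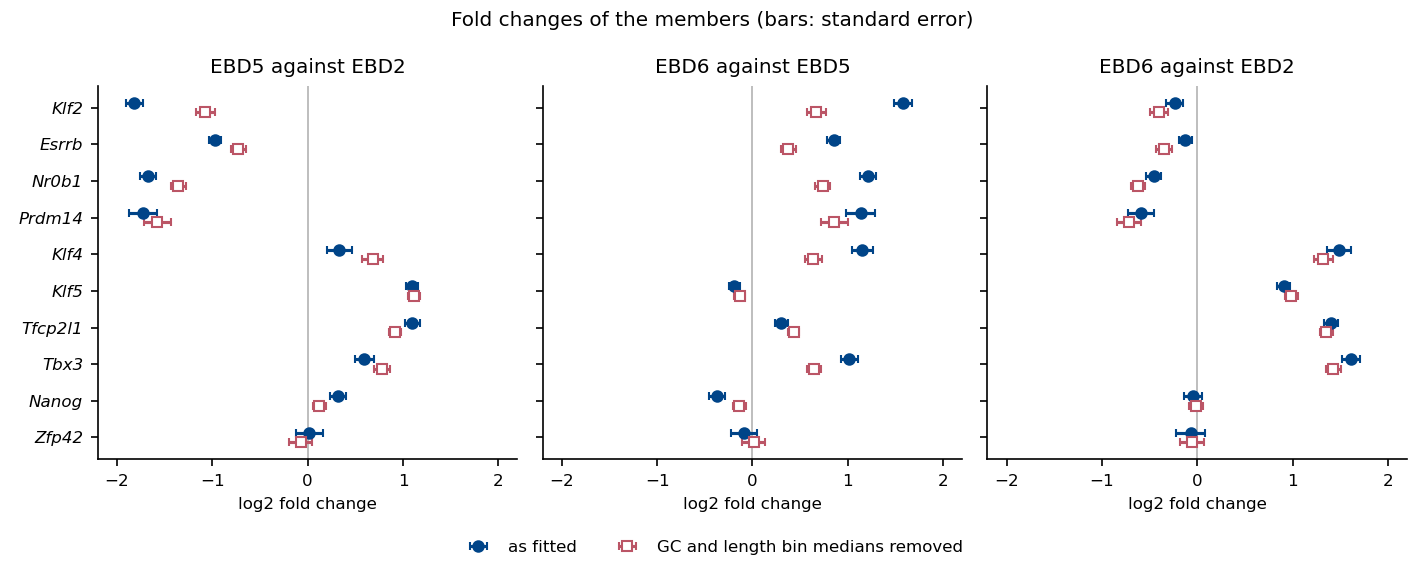
Log2 fold change of each gene (horizontal axes) in the 3 comparisons, as fitted (filled circles) and with the medians of GC and length bins removed (open squares), with bars for the standard error. Klf2 moves most with the bins removed, from 1.58 to 0.67 for EBD6 against EBD5 and from -1.82 to -1.07 for EBD5 against EBD2, and the 9 genes other than Zfp42 keep their direction in every comparison.

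Nanog, the homeobox factor whose loss lets stem cells differentiate readily, was at 176, 178 and 193 CPM in EBD2, 232, 235 and 225 CPM in EBD5, and 199, 164 and 159.9 CPM in EBD6. EBD5 lay above both other groups, whose libraries overlapped. Nanog rose by a log2 of 0.32 ± 0.09 (SE) to EBD5 (1.25-fold, edgeR adjusted p = 0.00585), fell by 0.37 ± 0.08 to EBD6 (1.29-fold, edgeR adjusted p = 0.00242), and had a log2 of -0.05 ± 0.09 between EBD2 and EBD6 (edgeR adjusted p = 0.673). With GC and length bins removed neither step passed (0.12, edgeR adjusted p = 0.142, and -0.14, edgeR adjusted p = 0.108). Nanog has the lowest GC content of the 10 genes, 45.8%. The pseudogenes Nanog-ps1 and Nanog-ps2 held at most 1 count in a library.

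Zfp42 was at 99.2, 93.8 and 105 CPM in EBD2, 87.5, 128 and 89.1 CPM in EBD5, and 103, 90.1 and 90.2 CPM in EBD6. All groups overlapped, and EBD5 replicate 2 was the highest library. Its log2 fold changes were 0.02 ± 0.14 (SE), -0.09 ± 0.14 and -0.07 ± 0.15 in the 3 comparisons (edgeR adjusted p = 0.917, 0.587 and 0.700), and it passed in none of the 22 alternatives. Zfp42 has a processed pseudogene, Zfp42-ps1, that drew 0 CPM in EBD5 replicate 2 and 1.13 to 4.23 CPM in the other libraries. With the counts of both summed, the log2 fold changes were -0.01, -0.05 and -0.06. Of the genes tested, 9.27% passed in no comparison, as Zfp42 did, and 10.5% had the calls of Nanog.

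GC content differed among the genes, with overlap between these sets. Klf2, Nr0b1, Esrrb and Prdm14, which were lowest in EBD5, have a GC content of 61.6%, 55.2%, 54.9% and 50.5%. For EBD5 against EBD2 the median log2 fold changes of their GC bins were -0.73, -0.30, -0.30 and -0.10. Those of the genes themselves were -1.82, -1.67, -0.97 and -1.73, in the same order. Klf4 and Tbx3 lie in the same range, at 54.6% and 54.2%, and rose in EBD5 where the median of their GC bin was -0.30. Klf5 and Tfcp2l1 are at 47.9% and 47.0%, where the bin median was 0.08. With bins removed, log2 fold changes to EBD5 from EBD2 were -1.07 for Klf2, -0.72 for Esrrb, -1.36 for Nr0b1, -1.58 for Prdm14, 0.78 for Tbx3, 1.117 for Klf5 and 0.92 for Tfcp2l1. From EBD5 to EBD6 they were 0.67 for Klf2, 0.38 for Esrrb, 0.74 for Nr0b1, 0.86 for Prdm14, 0.64 for Klf4, 0.65 for Tbx3 and 0.44 for Tfcp2l1, all of them still called.

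**Figure D3:**
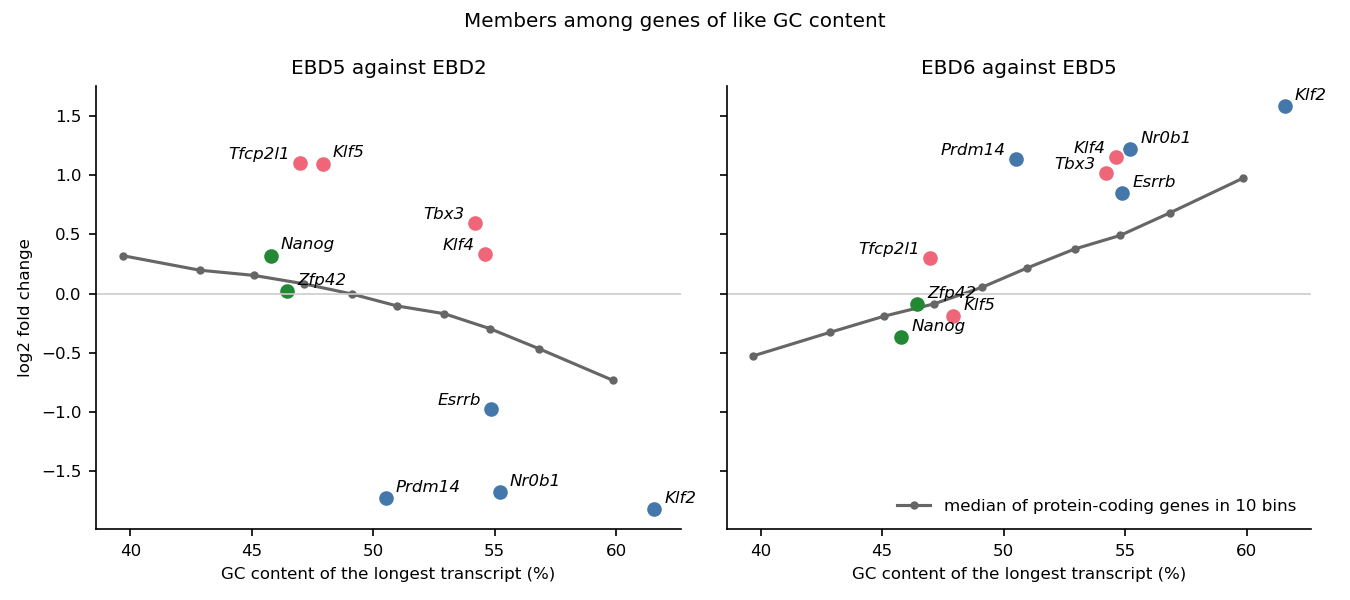
Log2 fold change (vertical axis) against GC content of the longest transcript (horizontal axis, percent) for EBD5 against EBD2 and EBD6 against EBD5. The line joins the medians of protein-coding genes in 10 bins of GC content, from 0.32 to -0.73 on the left and from -0.52 to 0.97 on the right, and points are the 10 genes (blue, lowest in EBD5; red, lowest in EBD2; green, Nanog and Zfp42).

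Levels of different genes were compared per kilobase of exon. Nanog stood highest in every group, at 82.6 ± 5.001 CPM per kb (SD, n = 2) in EBD2, 103 ± 2.15 (n = 3) in EBD5 and 80.5 ± 11.66 (n = 2) in EBD6. In EBD2 it was followed by Klf2 at 62.7, Zfp42 at 53.6, Esrrb at 46.3 and Nr0b1 at 40.4 CPM per kb. After a gap came Klf5 at 12.9 and Prdm14 at 10.7, and then Tfcp2l1, Klf4 and Tbx3 at 5.93, 5.72 and 5.09, whose samples overlapped. In EBD5 the order was Nanog, Zfp42 at 53.9, Klf5 at 27.6, Esrrb at 23.5, Klf2 at 17.8, and Tfcp2l1 and Nr0b1 at 12.8 and 12.7, which overlapped. Tbx3 and Klf4 came next at 7.78 and 7.39, also overlapping, and Prdm14 last at 3.23. Klf2 thus went from the second place to the fifth, and Klf5 from the sixth to the third. In EBD6 Klf2 and Zfp42 were back behind Nanog at 53.5 and 51.4, overlapping each other, and then came Esrrb at 42.4, Nr0b1 at 29.5 and Klf5 at 24.3. Klf4, Tfcp2l1 and Tbx3 overlapped at 16.3, 15.7 and 15.6, and Prdm14 was lowest at 6.89. With the length of the longest transcript in place of all exons, Esrrb stood second in EBD2 at 65.1 CPM per kb and in EBD6 at 59.6, above Klf2 and Zfp42 (53.5 and 52.7 in EBD6). Klf5 at 37.7 then passed Nr0b1 at 29.5 in EBD6, and Tbx3 passed Klf4 and Tfcp2l1 in EBD2 and EBD6. The order in EBD5 was the same with either length.

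**Figure D4:**
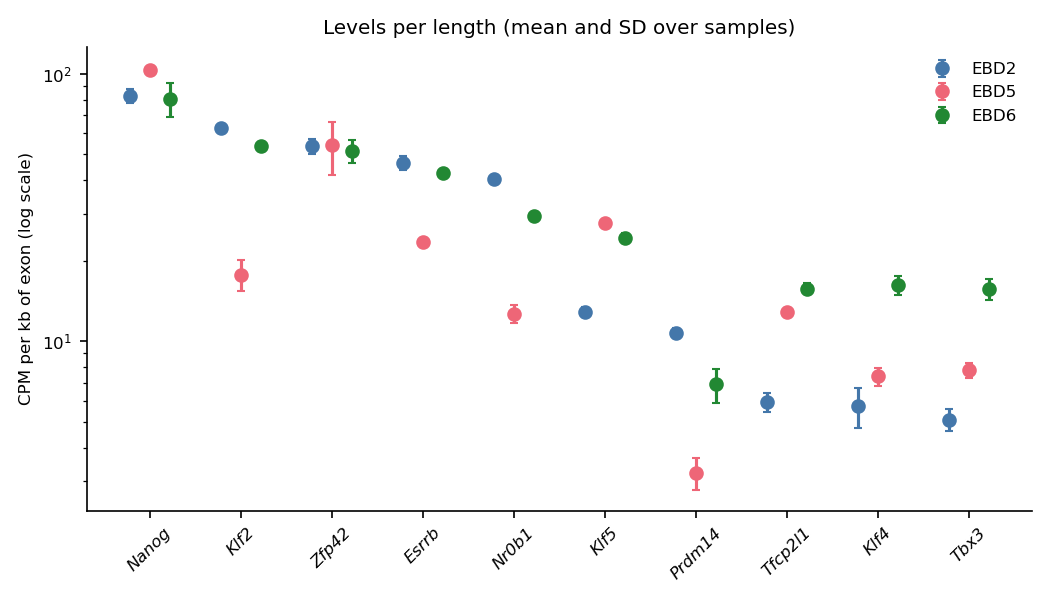
Level per kilobase of exon (vertical axis, CPM per kb, log scale) of each gene in EBD2, EBD5 and EBD6, as mean and SD over samples (n = 2, 3 and 2). Genes are ordered by EBD2; Nanog is highest in all 3 groups, and Tfcp2l1, Klf4 and Tbx3, lowest in EBD2, end between 15.6 and 16.3 in EBD6.

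Among the 10 genes, the most alike courses over the 7 samples were those of Klf4 and Tbx3, with a root mean square difference of 0.151 in centred log2 CPM. Klf2 and Nr0b1 differed by 0.171, Prdm14 and Nr0b1 by 0.177, Zfp42 and Nanog by 0.222 and Klf5 and Tfcp2l1 by 0.228. Among 12271 other genes with a mean of at least 5 CPM, the nearest to each was nearer still. A pool so much larger than the 10 genes holds nearer matches by its size, so no conclusion is drawn from this. The nearest gene was Tmem120b for Klf2 (0.122), Tmem115 for Klf4 (0.0761), Dusp16 for Klf5 (0.0429), Supt5 for Esrrb (0.0388) and Selenoi for Tfcp2l1 (0.0471). For Tbx3 it was Afap1l1 (0.0949), for Prdm14 Gstp3 (0.0768), for Nr0b1 Col18a1 (0.0350), for Zfp42 Slc7a6os (0.0508) and for Nanog Ube2b (0.0405). The next nearest were Prx, Chpf2, Sept11, Tbc1d19, Dusp3, Nagk, Arhgap33, Dgkz, Dync1li1 and Psmb5, in the same order.

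Stat3, the ligand gene Lif and the feedback inhibitor gene Socs3 rose at both steps. In the lists that follow, the shares over all genes tested are those given above, 34.9% higher and 35.1% lower for EBD5 against EBD2, 36.9% and 33.3% for EBD6 against EBD5, and 33.8% and 32.3% for EBD6 against EBD2. Of 10 genes of the LIF and Wnt inputs, EBD5 had 5 higher and 2 lower than EBD2, EBD6 had 6 higher and 2 lower than EBD5, and 6 higher and 1 lower than EBD2. Their median log2 fold changes were 0.37, 0.28 and 0.52, beside -0.01, 0.04 and 0.01 over all genes. Stat3, the transcription factor that LIF activates, was at 25.4, 29.5 and 28.0 CPM in EBD2, 51.2, 47.5 and 42.3 CPM in EBD5, and 98.1, 106 and 108 CPM in EBD6. It rose 3.72-fold from EBD2 to EBD6, with no overlap at either step, as did Socs3, its target and feedback inhibitor, 4.59-fold. Lif rose 2.52-fold over the same span. The receptor gene Lifr rose 2.15-fold to EBD5, from a mean of 74.4 ± 0.824 CPM (SD, n = 2) to 159.6 ± 6.12 (n = 3). Lifr was then lower in EBD6 than in EBD5, with a log2 fold change of -0.23 (edgeR adjusted p = 0.00464). Lef1, a Wnt effector, fell by a log2 of 1.09 to EBD5, and Tcf7l1, the Wnt-relieved repressor, fell by 0.59 to EBD5 and rose by 0.75 to EBD6 (edgeR adjusted p = 1.08e-06, 5.88e-05 and 7.57e-06).

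Most other genes tied to naive pluripotency were lower in EBD6 than in EBD2. Of 15 such genes, EBD5 had 3 higher and 9 lower than EBD2, EBD6 had 6 higher and 6 lower than EBD5, and 3 higher and 11 lower than EBD2. Their medians were -0.53, -0.06 and -0.72, beside -0.01, 0.04 and 0.01 over all genes, of which 32.3% were lower in EBD6 than in EBD2. The 3 that were higher in EBD6 than in EBD2 were Stat3, Dppa3, a maternal factor that guards methylation in the zygote, and Sall4, a zinc finger partner of Pou5f1. Dppa3 rose 3.22-fold to EBD5, from 18.2 to 19.7 CPM in EBD2 libraries to 56.8 to 64.0 CPM in EBD5. Jam2, an adhesion molecule, fell most, from 111 to 118 CPM in EBD2 to 15.5 to 19.6 in EBD5 and 18.3 to 23.5 in EBD6. Tet2, an enzyme that oxidises methylated cytosine, fell at both steps, from 167 ± 5.41 CPM (SD, n = 2) to 108 ± 1.89 (n = 3) and 58.4 ± 1.17 (n = 2), and Fgf4, the Erk-activating ligand, from 246 ± 15.3 to 155 ± 5.25 and 104 ± 1.45. Gbx2, a Stat3 target, dipped as Klf2 did, with log2 fold changes of -1.23 to EBD5 and 0.91 from there to EBD6.

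Genes tied to exit from the naive state were called about as often in either direction. So were all genes tested in EBD5 against EBD2 (34.9% higher and 35.1% lower). The list holds Tfe3 beside its regulator Flcn and was not split by the role of each gene. Of 11, EBD5 had 4 higher and 4 lower than EBD2, EBD6 had 5 higher and 6 lower than EBD5, and 2 higher and 3 lower than EBD2, with medians of 0.04, -0.16 and 0.07. Etv5, Zfp706, Rbpj and Fnip1 were called higher in EBD5 than in both other groups. Tcf7l1, Etv4, Tfe3 and Mbd3 were called lower in EBD5 than in both. Rbpj, the Notch effector, was at 149 to 152 CPM in EBD2, 290.0 to 317 in EBD5 and 125 to 137 in EBD6. Flcn, a regulator of Tfe3 location, rose by a log2 of 0.98 ± 0.08 (SE) from EBD5 to EBD6 (edgeR adjusted p = 1.14e-06). Of 13 formative and primed epiblast genes, EBD5 had 2 higher (Fgf5 and Otx2) and 10 lower than EBD2, EBD6 had 7 higher and 4 lower than EBD5, and 11 lower than EBD2 with the other two not called, with medians of -1.09, 0.27 and -0.82. Fgf5, the primed epiblast marker, was at 81.6 to 82.6 CPM in EBD2, 165 to 177 in EBD5 and 55.1 to 58.8 in EBD6. Otx2, which drives the formative state, was at 237 to 256, 286 to 301 and 90.1 to 98.1 CPM. Of this list Foxd3, Tcf15, Pou3f1 and Fgf15 fell most from EBD2 to EBD5 (log2 -1.67, -1.67, -1.49 and -1.33).

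**Figure D5:**
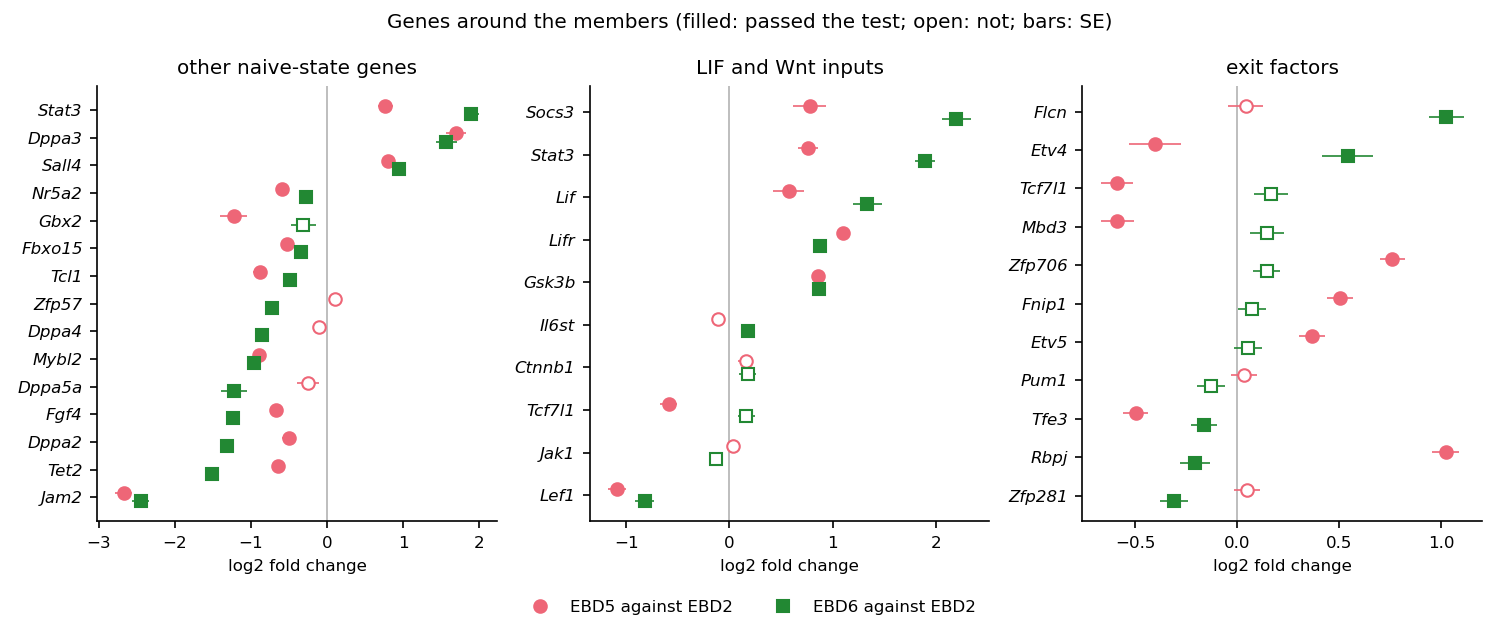
Log2 fold change (horizontal axes) of EBD5 (circles) and EBD6 (squares) against EBD2, with bars for the standard error. Panels hold other genes tied to naive pluripotency, genes of the LIF and Wnt inputs and genes tied to exit from the naive state. Filled symbols passed the test. For EBD6, Stat3 stands highest among the other naive genes and Socs3 among the LIF and Wnt inputs, which is not so for EBD5. In EBD6, 11 of the 15 other naive genes are called lower.

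The labelled cell type was checked against the core factors. Pou5f1 was at 231 to 299 CPM in EBD2, 227 to 237 in EBD5 and 175 to 196 in EBD6, and Sox2 at 333 to 371, 153 to 174 and 165 to 196 CPM. Pou5f1 did not pass between EBD2 and EBD5 (log2 -0.19 ± 0.10 (SE), edgeR adjusted p = 0.0952) and fell by 0.32 to EBD6, and Sox2 fell by 1.14 to EBD5 (edgeR adjusted p = 0.0124 and 7.13e-07). Markers of other cell types moved beside the 10 genes. All 12 endoderm markers were higher in EBD5 and in EBD6 than in EBD2, and their summed level was 36.7 to 39.6 CPM in EBD2, 2456 to 2555 in EBD5 and 1546 to 1587 in EBD6. Of these, Afp, Ttr, Amn and Apoa1 were under 1 CPM in every EBD2 library. Cubn and Dab2, endocytic genes of visceral endoderm, held most of this sum, at means of 1125 and 826 CPM in EBD5 and 406 and 455 in EBD6. Between EBD5 and EBD6, 6 of the 12 markers were higher and 4 lower in EBD6, with a median log2 fold change of 0.24. The 10 trophoblast markers summed to 79.8 to 84.8, 202 to 206 and 309 to 315 CPM, with Eomes alone at a mean of 132 CPM in EBD5. All 9 that were tested were higher in EBD6 than in EBD2, and 5 were higher and 1 lower in EBD5, but the defining markers Cdx2 and Elf5 were at 0 in every EBD2 library and at most 1.13 and 0.180 CPM in EBD5. Mesoderm, endothelium and surface epithelium markers summed to 96.6 to 109, 367 to 382 and 734 to 789 CPM. Of the 7 tested, 6 were higher in EBD5 and all 7 in EBD6, while Krt5 was at 0 in EBD2 and EBD5 and Trp63 at 0 in EBD2. Krt8 and Krt18, keratins of simple epithelia, held most of that sum, at means of 148 and 215 CPM in EBD5 and 258 and 345 in EBD6. The mesoderm and endothelium markers T, Kdr and Cdh5 were at means of 1.72, 1.303 and 2.04 CPM in EBD5, T not called there, and Mesp1 was at 0. Klf4, Tfcp2l1 and Tbx3 were lowest in EBD2 and highest in EBD6, as were Krt8, Krt18 and the trophoblast sum. Klf5 was highest in EBD5, as was the endoderm sum, of which Cubn and Dab2 held most. Of the 12 endoderm markers, though, 6 were higher and 4 lower in EBD6 than in EBD5. The part of these cell types in the levels of the 10 genes was not tested.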

How the data were processed

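Polyadenylated RNA was measured in 9 libraries, and the authors deposited expected counts, that is read numbers estimated for each gene, with fractions and with no scaling to depth or length. The submitters' processing notes name RSEM 1.3.30, STAR 2.7.10a, cutadapt 1.18, DESeq2 1.38.3, edgeR 3.40.2 and the build mm10 without saying what each did. The sources used here do not give the annotation or the strand setting. Expected counts were rounded. GENCODE M21 named 54165 of 54232 gene IDs (99.9%). A second deposited table with identical values and the row MR3, which names no gene, were not used. MR3 took 0.0119 to 0.0157% of the EBD6 libraries, 0% of the EBD5 libraries and at most 3.53e-05% of an EBD2 library. What MR3 stands for is not given, and its part in the differences of EBD6 was not tested.

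Libraries within a group were compared by chi-square over genes with at least 20 counts, and near-identical pairs were summed, which left 7 samples. Genes were filtered by filterByExpr, tested after TMM scaling by the quasi-likelihood F test of edgeR 4.0.16 in R 4.3.3 with Benjamini-Hochberg adjustment. One fit held all 3 groups, with 4 residual degrees of freedom. The common biological CV was 6.72%. The SE is the log2 fold change divided by the square root of F. The code was tested on simulated data. GC content and length came from the longest transcript, and the alternative fit took the medians of 10 GC bins by 4 length bins as offsets. Depth limits the precision most for Prdm14.

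The members and gene lists were chosen with earlier results of these data known. All 10 members are named, with core and family genes and the 2 genes of nearest course. From each other list genes were mostly drawn from those with the largest called change, up to 4 per comparison and direction. Not all genes that this rule admits are named. Markers at or near 0 were also named, after their values were seen. Alternatives were DESeq2 1.42.0, limma 3.58.1, other scalings, filters and groupings of libraries, GC and length bins, a fold of 1.5, leaving out each library, and Zfp42 with its pseudogene, which was added after seeing the data.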

Additional observations from a re-analysis of the deposited data

How the results depend on the processing

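Against 22 alternatives, no called fold change of the 10 members turned its direction. Tested against a fold of 1.5, the calls over all genes came to 5606 for EBD5 against EBD2, 5317 for EBD6 against EBD5 and 4918 for EBD6 against EBD2, in place of 11319, 11356 and 10685, and 4 members passed in the last comparison in place of 7. The members that did not pass it were Klf4, Tbx3 and Nanog, then Klf5, Tfcp2l1 and Nanog, then Klf2, Prdm14 and Nr0b1, beside those not called at first, and a test against a fold asks for more than a test against no change. Leaving out each library in turn gave 10240 to 12111, 10280 to 11596 and 9502 to 11010 calls and 8 to 9, 9 and 6 to 7 members; where a group was left with 1 sample, that sample is assumed to vary like the other groups. The labels give the groups the same replicate numbers, but same-numbered libraries did not deviate together (correlations of -0.105 to 0.0586, 0 of 9 pairs over 0.1, and 1 of 9 libraries correlated best with its own number). With 9 libraries and a replicate block 11512, 11678 and 11452 genes and 9, 9 and 7 members passed, as many members as without the block. With no filter the median over all genes moved to 0.24 for EBD6 against EBD5 and 0.19 for EBD6 against EBD2. For levels per kilobase the alternative was the length of the longest transcript, with which Klf5 was at 19.95, 42.9 and 37.7 CPM per kb in EBD2, EBD5 and EBD6. Depth limits Prdm14 most, with 40 to 50 counts in an EBD5 library.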

Other observations

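The Krüppel-like factor genes outside the naive network included calls in both directions, as did all genes tested (34.9% higher and 35.1% lower for EBD5 against EBD2, 36.9% and 33.3% for EBD6 against EBD5, and 33.8% and 32.3% for EBD6 against EBD2). Of 14 such genes, EBD5 had 7 higher and 5 lower than EBD2, and EBD6 had 5 higher and 5 lower than EBD5 and 8 higher and 4 lower than EBD2, with median log2 fold changes of 0.17, -0.05 and 0.42, beside -0.01, 0.04 and 0.01 over all genes. Klf6, a broadly expressed activator, was at 79.4 to 83.4 CPM in EBD2 libraries, 199 to 216 in EBD5 and 234 to 258 in EBD6, and rose 3.03-fold from EBD2 to EBD6 (edgeR adjusted p = 1.90e-08). Klf16 was at 36.7 to 37.2, 26.2 to 27.1 and 78.0 to 85.4 CPM, so it fell to EBD5 and rose 3.07-fold from there to EBD6 (edgeR adjusted p = 3.62e-08). Klf3, a repressor, dipped in EBD5 (137 to 143, 85.6 to 93.9 and 129.7 to 135 CPM), with no call between EBD2 and EBD6 (log2 -0.07, edgeR adjusted p = 0.330). Klf9 and Klf12 fell at both steps and were 1.87-fold and 2.48-fold lower in EBD6 than in EBD2. Klf7, Klf8 and Klf15 rose 1.89-fold, 1.67-fold and 2.16-fold to EBD5. Klf13 and Klf11 rose from EBD2 to EBD6 by a log2 of 0.56 and 0.28, and Klf10 fell by 0.37. Klf1, Klf14 and Klf17 stayed under 6 CPM in every library.

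Among the nearest relatives of the other members, Esrra and Tbx2 rose from EBD5 to EBD6. Of 12 relatives listed, Nanogpd matched no row and 8 were tested, of which EBD5 had 2 higher and 3 lower than EBD2, and EBD6 had 3 higher and 2 lower than EBD5 and likewise 3 higher and 2 lower than EBD2, with medians of -0.05, 0.11 and 0.14. Esrra, the metabolic relative of Esrrb, was at 15.1 to 16.3 CPM in EBD2, 9.03 to 10.01 in EBD5 and 27.7 to 36.1 in EBD6, a dip and a rise of 3.37-fold (edgeR adjusted p = 7.13e-07) that took it above EBD2, where Esrrb ended just under it. Tfcp2, the relative of Tfcp2l1, fell by a log2 of 0.52 to EBD5 (edgeR adjusted p = 0.00497), where Tfcp2l1 rose. Its fellow CP2 gene Ubp1 had a log2 of 0.11 to EBD5 (edgeR adjusted p = 0.112) and fell by 0.51 from there to EBD6. Yy1, from whose family Zfp42 arose, rose by a log2 of 0.38 from EBD2 to EBD6 (edgeR adjusted p = 0.00134). Tbx2, the T-box gene nearest to Tbx3, was at means of 1.42, 0.995 and 2.58 CPM and rose by a log2 of 1.49 ± 0.45 (SE) from EBD5 to EBD6 (edgeR adjusted p = 0.0115), while Tbx4 rose by 0.69 ± 0.21 from EBD2 to EBD5 (edgeR adjusted p = 0.0134). Prdm1, a relative of Prdm14, fell by a log2 of 0.21 to EBD5, and Zfp41 fell by 0.26 from EBD5 to EBD6 (edgeR adjusted p = 0.0334 and 0.0240). Esrrg, Tbx5 and Nr0b2 were too low to be tested.

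Prdm14 is also required for germ cells. Of 9 primordial germ cell markers, set beside the same shares over all genes, EBD5 had 2 higher and 6 lower than EBD2, and EBD6 had 4 higher than EBD5, with the other 5 not called, and 3 higher and 2 lower than EBD2, with medians of -0.72, 0.26 and -0.09. Their sum was 384 to 391 CPM in EBD2, 314 to 319.6 in EBD5 and 408 to 409.8 in EBD6. Dnd1 dipped as Prdm14 did (21.7 to 24.0, 5.18 to 6.04 and 15.1 to 21.1 CPM), while Dazl fell 5.03-fold to EBD5 and was at 10.9 to 11.98 CPM in EBD6.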
